A study of Mus musculus with 6 samples.

Results

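The tumour necrosis factor (TNF) superfamily was compared between differentiated (osteogenic) and undifferentiated cultures of MC3T3-E1 cells, a preosteoblast line from mouse calvaria. Members were taken by gene symbol, as genes named Tnfsf or Tnfrsf with a number and Traf1 to Traf7, together with 15 family genes that carry other symbols such as Fas, Ngfr and Ltbr. The symbols came from matching each probe set's transcript accession to a RefSeq gene table. This gave 53 genes, held by 57 probe sets, out of 41938 genes and unnamed probe sets on the array (17331 with a symbol). They were 18 ligands, 7 receptors with a death domain, 17 receptors without one, 4 genes listed here as decoy receptors and 7 TRAF adaptors.

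Ligands of this family are mostly trimeric membrane proteins that can be shed, and each binds one or a few cysteine-rich receptors. Receptors with a death domain can assemble complexes that activate caspases. The others, and several of the death domain receptors as well, recruit TRAF adaptors that switch on NF-kB and MAP kinases. In bone the best known members are Tnfsf11, the RANK ligand that osteoblast lineage cells present to osteoclast precursors, its receptor Tnfrsf11a (RANK), and Tnfrsf11b (osteoprotegerin), a secreted decoy that captures the ligand.

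Differentiated cells had been kept for 15 days in complete medium with 10 mM glycerol-2-phosphate and 50 ug/mL ascorbic acid, and undifferentiated cells were grown in complete medium with neither supplement named for them. The 15 days and the supplements are given for differentiated cells only, so neither can be told apart from differentiation. Complete medium was alpha MEM with 10% heat-inactivated serum and antibiotics. Cells of both groups had received the ethanol vehicle for 24 h. There were 3 single-colour arrays per group, described as biological triplicates. MC3T3-E1 is a cultured line, so the replicates are cultures and not animals. Both groups are whole cultures, in which fewer cells of a type and less RNA per cell cannot be told apart.

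Levels are given as log2 intensity after quantile normalization of the 6 arrays, and differences as log2 fold changes of differentiated minus undifferentiated cells. Levels of different probe sets are not comparable with each other. The random-sequence control probes read 6.70 to 6.80 on this scale. Their name gives a low GC range, so they may understate the background of GC-rich probes. Undifferentiated replicate 3 stood apart, with a root mean square deviation from its group mean of 0.208 over all genes, against 0.082 to 0.154 for the other arrays. For 21 of the 53 members it was also the array farthest from its group's mean. Calls of members that were lost without it are named, and without it 9391 genes and probe sets were called in place of 7135. The scanner image names put the groups in separate runs, so run and group cannot be told apart. The osteoblast label held, in that Alpl, Pth1r and Dmp1 were among 6 of 11 osteoblast marker genes that rose and none fell (limma; no further marker had an unadjusted p under 0.05).

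Of the 53 members, 6 were higher and 7 lower in differentiated cells at a Benjamini-Hochberg adjusted p under 0.05 in a limma fit over the whole table. That is 24.5% of the members, against 17.0% of all genes and unnamed probe sets (7.97% higher and 9.04% lower). The shares were closer in other settings, at 20.5% of the members tested against 21.5% of all after leaving out entries below the 25th percentile of mean level, and at 7.55% against 7.59% for an adjusted p under 0.01. With 1 array left out the members' share ran both above and below that of all, for example 17.0% against 11.5% without undifferentiated replicate 1 and 9.43% against 12.6% without differentiated replicate 3. Calls of 2-fold or more were made for 3 members, Tnfrsf19, Eda2r and Fas (5.66%, against 2.41% of all). The groups did not overlap for 17 members (32.1%), whereas this held for 35.4% of all genes and probe sets. The median log2 fold change of the members was 0.04, and that of all was 0.00.

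The calls were divided unevenly over the roles. Receptors accounted for 12 of the 13 called members, or 12 of 28 receptors (42.9%, against 17.0% of all genes and probe sets). Only 5 of them were called whichever array was left out, and the split over roles was not followed through other settings. Among the ligands 1 of 18 was called, and among the TRAF adaptors 0 of 7 (limma; 1 TRAF had an unadjusted p under 0.05). The median absolute log2 fold change was 0.56 for death domain receptors, 0.15 for the other signalling receptors, 0.10 for ligands and 0.14 for TRAFs, against 0.165 for all. No test of a role as a group was made.

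**Figure D1:**
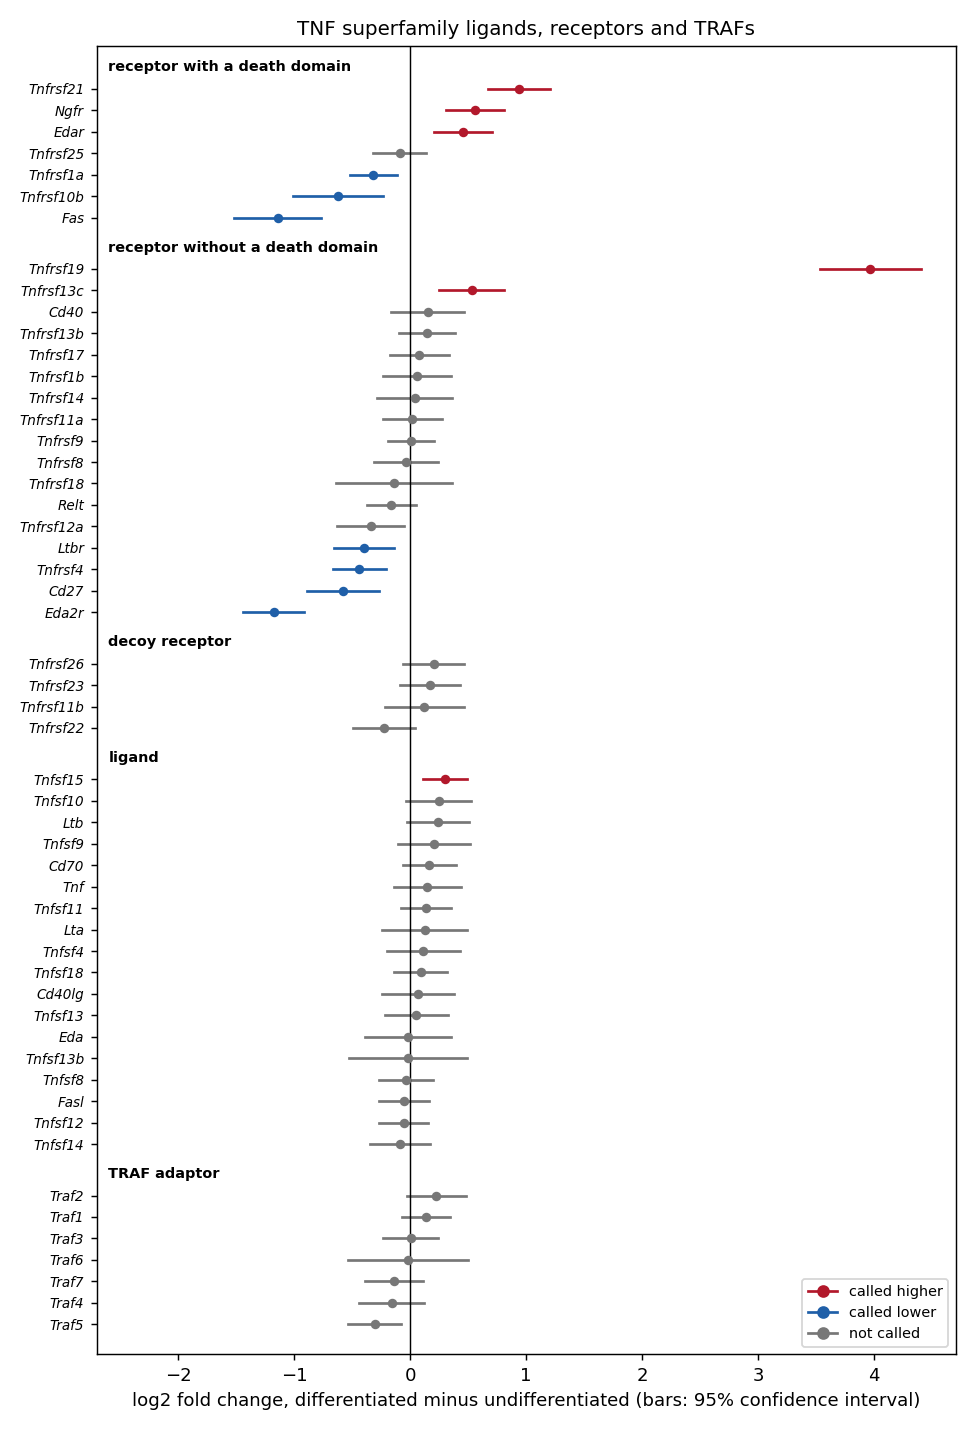
Log2 fold change of each of the 53 members (x axis, differentiated minus undifferentiated, 3 arrays each) with its 95% confidence interval from limma, grouped by role. Tnfrsf19 stands alone at 3.97, and the called genes in red (higher) and blue (lower) are nearly all receptors.

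Tnfrsf19 changed most of all members. It encodes TROY, a receptor without a death domain that can take the place of Ngfr in the Nogo receptor complex of neurons. Its levels were 14.18, 14.14 and 13.99 in differentiated replicates 1, 2 and 3, against 10.13, 9.72 and 10.57 in undifferentiated replicates 1, 2 and 3. All 3 differentiated arrays lay close together and far above the undifferentiated ones, which were more scattered. The log2 fold change was 3.97 ± 0.19 (SE, n = 3 per group), a 15.6-fold rise (limma adjusted p = 7.07e-06). With any single array left out it stayed between 3.76 and 4.18.

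RefSeq places more than one start for Tnfrsf19, and which of them these cells use was not measured. The 250 bases before each of 2 starts are shown because this is the member with the largest change. Capitals mark the GC box GGGCGG on either strand. The windows lie on the minus strand of GRCm38.p6, at chr14:61037988-61038237 for the first and chr14:61046856-61047105 for the second.
Tnfrsf19, first window: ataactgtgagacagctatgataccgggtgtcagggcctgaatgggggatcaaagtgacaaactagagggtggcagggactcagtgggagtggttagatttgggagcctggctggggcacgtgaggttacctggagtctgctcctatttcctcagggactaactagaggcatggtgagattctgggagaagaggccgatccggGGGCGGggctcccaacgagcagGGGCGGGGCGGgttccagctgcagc
Tnfrsf19, second window: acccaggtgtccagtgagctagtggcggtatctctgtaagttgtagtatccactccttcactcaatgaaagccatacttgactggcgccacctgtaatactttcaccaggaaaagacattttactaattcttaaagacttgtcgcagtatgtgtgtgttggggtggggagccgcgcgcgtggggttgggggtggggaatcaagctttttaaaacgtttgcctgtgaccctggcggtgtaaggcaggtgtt
The first window held 3 GC boxes, of which 2 share a base, and the second held none.

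The death domain receptors split in both directions, 3 higher and 3 lower, with 1 not called. Tnfrsf21 (death receptor 6 in the older naming of the family), Ngfr, the low-affinity neurotrophin receptor, and Edar, the ectodysplasin receptor of hair and tooth development, rose. Fas, the receptor for Fas ligand, Tnfrsf10b, the mouse receptor for the ligand TRAIL, and Tnfrsf1a, the main receptor for TNF, fell. Tnfrsf25, a death domain receptor that binds Tnfsf15, differed by -0.09 on the log2 scale (interval -0.32 to 0.14 at 95% confidence, limma adjusted p = 0.602).

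Tnfrsf21 read 10.72, 10.74 and 10.49 in differentiated cells, against 9.82, 9.53 and 9.78 in undifferentiated cells. The groups were separated by more than the spread within either, and the rise was 1.92-fold (log2 fold change 0.94 ± 0.12 SE, limma adjusted p = 0.00114). Ngfr read 8.57, 8.40 and 8.43 in differentiated cells, against 8.02, 7.99 and 7.72 in undifferentiated cells. Its rise was 1.47-fold (limma adjusted p = 0.0103). Edar read 8.24, 8.28 and 8.51 in differentiated cells, against 7.99, 7.93 and 7.76 in undifferentiated cells, a 1.37-fold rise (limma adjusted p = 0.0247). Ngfr and Edar were dim, 0.99 to 1.83 above the random-sequence probes on the log2 scale for Ngfr and 1.03 to 1.78 for Edar, and a filter at the 25th percentile of mean level removed both.

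Fas read 9.38, 9.77 and 9.97 in differentiated cells, against 10.81, 10.67 and 11.07 in undifferentiated cells. It fell 2.20-fold, with a log2 fold change of -1.14 ± 0.16 (SE, n = 3 per group; limma adjusted p = 0.00236). Tnfrsf10b read 9.44, 9.70 and 9.79 in differentiated cells, against 10.14, 10.01 and 10.65 in undifferentiated cells. It fell 1.54-fold (limma adjusted p = 0.0381), with undifferentiated replicate 3 well above the rest of its group. Tnfrsf10b kept its call without that array, at a log2 fold change of -0.435, but lost it without undifferentiated replicate 1 (adjusted p = 0.0724) or any differentiated array (0.132, 0.109 and 0.0589 without replicates 1, 2 and 3). Cyclic loess ended it as well (limma adjusted p = 0.0639).

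Tnfrsf1a had a narrow spread and a small change. It read 13.79, 13.83 and 13.70 in differentiated cells, against 14.05, 14.12 and 14.10 in undifferentiated cells, a fall of 1.25-fold (limma adjusted p = 0.0405). The groups did not overlap, yet the call was kept in only 1 of the 6 settings that leave out an array, the one without undifferentiated replicate 3, with adjusted p up to 0.126. It was also lost with the deposited values (limma adjusted p = 0.0698), with median centring (0.0577) and with cyclic loess (0.0545). Tnfrsf1b, the other TNF receptor, which has no death domain, differed by 0.06 on the log2 scale (interval -0.24 to 0.35).

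**Figure D2:**
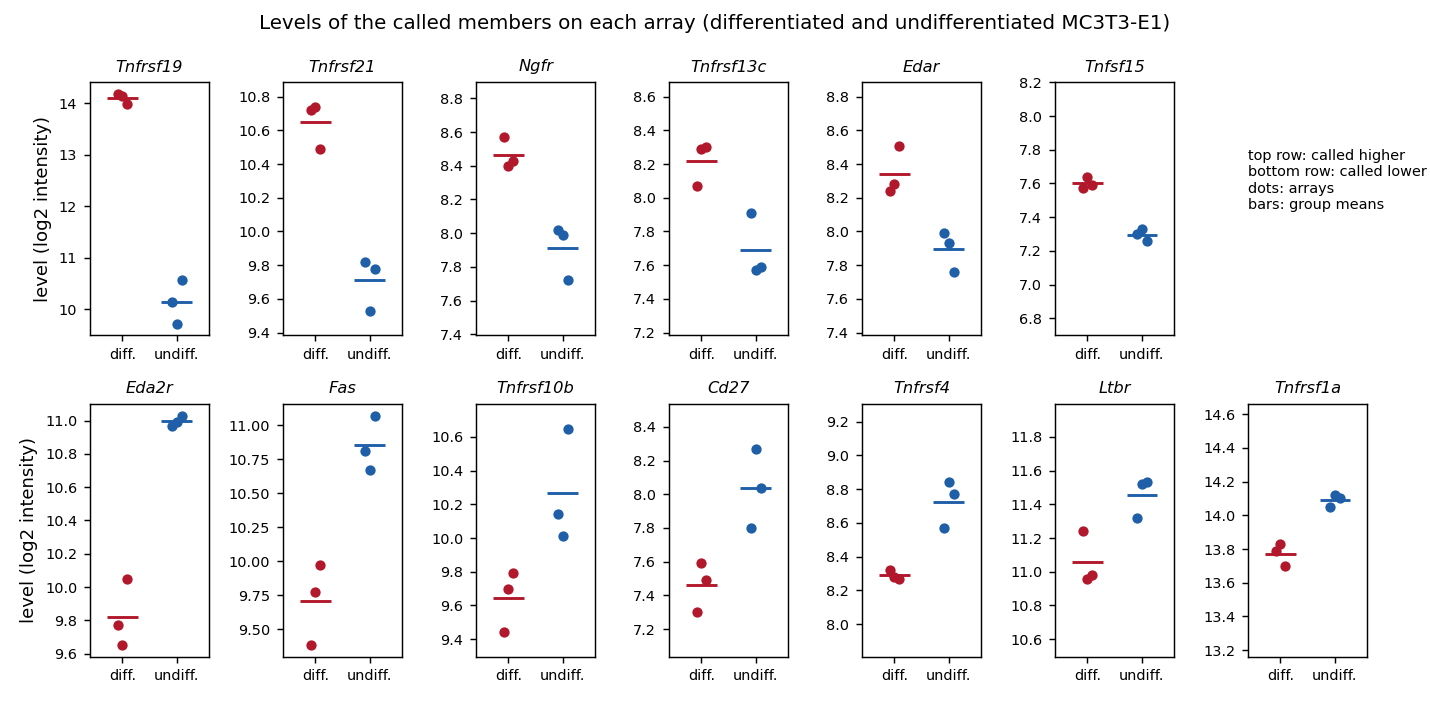
Level of each of the 13 called members (y axis, log2 intensity, with its own axis per panel, each spanning at least 1.5 log2 units) on the 3 differentiated (diff.) and 3 undifferentiated (undiff.) arrays. Dots are arrays and bars are group means; the groups overlap in none of the panels, and Tnfrsf19 spans the widest range.

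Of the 17 signalling receptors without a death domain, 2 rose, 4 fell and 11 were not called. Besides Tnfrsf19 the riser was Tnfrsf13c, the receptor for the B cell survival factor BAFF, and the genes that fell were Eda2r, Cd27, Tnfrsf4 and Ltbr. Eda2r, the second ectodysplasin receptor (XEDAR), had the largest fall of the family. It read 9.77, 9.65 and 10.05 in differentiated cells, against 10.97, 10.99 and 11.03 in undifferentiated cells. The undifferentiated arrays lay close together (SD 0.03, against 0.20 in the differentiated arrays), and the fall was 2.26-fold (log2 fold change -1.17 ± 0.12 SE, limma adjusted p = 0.000325). Eda2r, Fas and Tnfrsf10b are all known as genes that the tumour suppressor p53 can activate. That is background, and a part of p53 in these changes was not tested.

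Eda2r and Edar, which moved in opposite directions, bind different splice forms of 1 ligand gene, Eda. Eda differed by -0.02 on the log2 scale (interval -0.39 to 0.35), and whether its probe set separates the splice forms was not tested.

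The 250 bases before the annotated starts of Eda2r (minus strand, chrX:97377210-97377459) and Fas (plus strand, chr19:34290409-34290658), both from RefSeq on GRCm38.p6, are shown because these were the largest falls. Capitals mark the GC box GGGCGG, the TATA box TATAAA in Eda2r and the AP-1 motif TGANTCA in Fas, each searched on both strands.
Eda2r: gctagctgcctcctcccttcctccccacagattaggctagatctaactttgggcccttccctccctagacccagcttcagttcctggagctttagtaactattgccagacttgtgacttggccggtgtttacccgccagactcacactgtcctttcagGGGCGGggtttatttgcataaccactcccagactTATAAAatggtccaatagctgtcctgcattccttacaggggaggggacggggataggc
Fas: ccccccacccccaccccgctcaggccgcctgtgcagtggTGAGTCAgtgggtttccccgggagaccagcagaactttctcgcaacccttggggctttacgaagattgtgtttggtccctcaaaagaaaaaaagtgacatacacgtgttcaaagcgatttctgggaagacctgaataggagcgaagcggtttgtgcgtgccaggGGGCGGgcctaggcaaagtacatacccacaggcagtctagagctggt
The marked motifs do not overlap one another in these windows.

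Promoter windows of 300 bases (250 before and 50 after the start) were found for 43 of the 53 members, 47 windows in all, and for 12 of the 13 called members, with 13 windows. The RUNX motif TGTGGT, searched because the study concerns RUNX2, was in 9 of the 47 windows (19.1%), against 16.8% of all 32851 promoter windows. Among the 13 windows of called members 1 held it, that of Tnfrsf13c. The GC box was in 25 of 47 windows (53.2%, against 35.7% of all), the AP-1 motif in 7 (14.9%, against 7.81%) and the TATA box in 7 (14.9%, against 13.6%). The median GC content was 57.7% in the members' windows and 52.7% in all, and its part in the GC box counts was not tested. The NF-kB motif was in 5 windows (10.6%, against 8.46%), none of them of a called member. A match is only a description of the letters in the window.

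Tnfrsf13c, Cd27 and Tnfrsf4 are best known from lymphocytes. Tnfrsf13c read 8.07, 8.29 and 8.30 in differentiated cells, against 7.91, 7.57 and 7.59 in undifferentiated cells, a 1.44-fold rise (limma adjusted p = 0.0201). Cd27, the receptor for Cd70, read 7.30, 7.59 and 7.49 in differentiated cells, against 7.80, 8.27 and 8.04 in undifferentiated cells, a 1.49-fold fall (limma adjusted p = 0.0225). Tnfrsf4, a costimulatory receptor of T cells, read 8.32, 8.28 and 8.27 in differentiated cells, against 8.57, 8.84 and 8.77 in undifferentiated cells, a 1.36-fold fall (limma adjusted p = 0.0189). These are dim probe sets with groups separated by little. Tnfrsf13c kept its call in 3 of the 6 settings that leave out an array, and Cd27 and Tnfrsf4 in 2 each.

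Markers of lymphocytes themselves were not called (0 of 6 by limma, 0 with an unadjusted p under 0.05). Their summed intensity ran from 3521 to 4459 in differentiated and from 3431 to 3933 in undifferentiated arrays. Only the B cell marker Ms4a1 lay below the random-sequence probes on all 6 arrays, and the other markers of the list cleared them on all 6.

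Ltbr, the receptor for the lymphotoxin heterotrimer and a known activator of the alternative NF-kB branch, read 11.24, 10.96 and 10.98 in differentiated cells. In undifferentiated cells it read 11.32, 11.52 and 11.53. The lowest undifferentiated and the highest differentiated array nearly met, and the fall of 1.31-fold (limma adjusted p = 0.0452) was called in 1 of the 6 settings that leave out an array, the one without differentiated replicate 1. It was not called without undifferentiated replicate 3 (limma adjusted p = 0.0584), with the deposited values (0.0593) or with cyclic loess (0.0605).

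Among the 11 uncalled genes of this kind the log2 fold changes ran from -0.34 for Tnfrsf12a to 0.15 for Cd40. Tnfrsf12a, the receptor for the ligand Tnfsf12 (TWEAK), read 9.12, 9.36 and 9.46 in differentiated cells, against 9.55, 9.85 and 9.56 in undifferentiated cells. Its groups did not overlap, the interval was -0.63 to -0.05 and the adjusted p was 0.107. With array weights Tnfrsf12a was called lower (log2 fold change -0.28, limma adjusted p = 0.0316). In that setting differentiated replicate 2 carried a weight of 11.1, against 0.24 to 1.42 for the other arrays. It called 37.8% of all genes and probe sets, so a call made only there carries little weight. Tnfrsf18, a costimulatory receptor in T cells, had the widest interval of the uncalled receptors (-0.64 to 0.36). It read 13.03, 12.78 and 12.30 in differentiated cells, against 13.03, 13.07 and 12.43 in undifferentiated cells; replicate 3 was the lowest in both groups.

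The RANK ligand axis showed no called change. Tnfsf11 read 7.15, 7.11 and 7.28 in differentiated cells, against 7.13 in undifferentiated replicate 1 and 7.0 in undifferentiated replicates 2 and 3. All 6 values were close to background, 0.19 to 0.55 above the random-sequence probes on the log2 scale, so a change in a low level could not be resolved on these arrays. The difference was 0.13 on the log2 scale (interval -0.08 to 0.35, limma adjusted p = 0.396).

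Tnfrsf11b was well above background, at 11.76, 12.03 and 12.27 in differentiated cells, against 12.08, 11.69 and 11.92 in undifferentiated cells. The groups overlapped, and the difference of 0.12 on the log2 scale had an interval of -0.22 to 0.47, which leaves out a 2-fold change. Tnfrsf11a read 8.72, 8.59 and 8.45 in differentiated cells, against 8.48, 8.71 and 8.50 in undifferentiated cells (log2 fold change 0.02, interval -0.23 to 0.27). The within-array difference Tnfsf11 minus Tnfrsf11b averaged -4.84 ± 0.20 in differentiated and -4.85 ± 0.14 in undifferentiated cells (log2, SD, n = 3 each). The change in it was 0.01 (two-sided exact permutation test, p = 0.8, where 0.1 is the smallest that 3 against 3 arrays allow), and its sign turned under other settings. With the ligand near background on every array, the difference holds little information on the ligand itself.

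**Figure D3:**
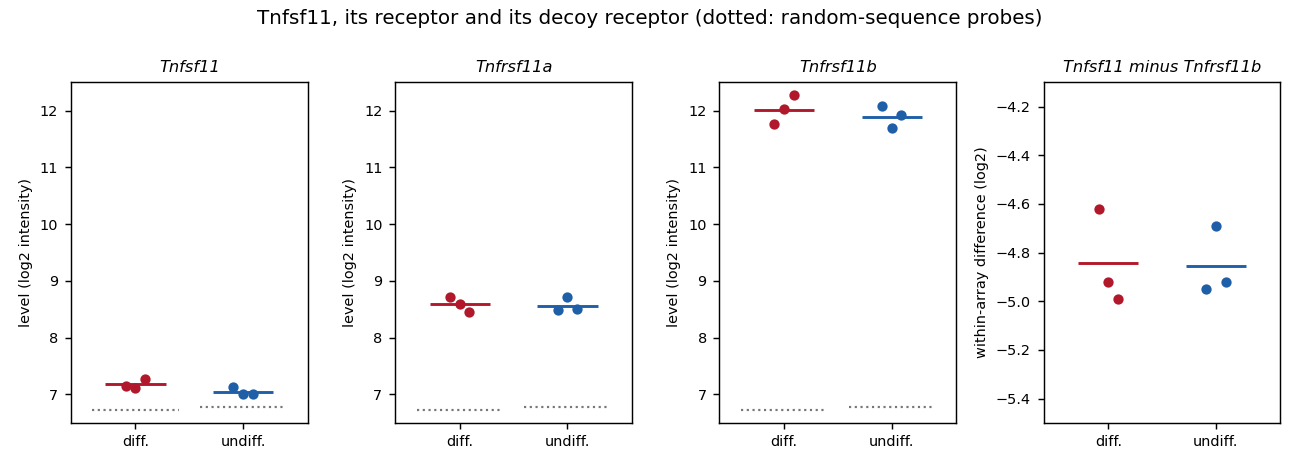
Levels of Tnfsf11, Tnfrsf11a and Tnfrsf11b (log2 intensity) and the within-array difference Tnfsf11 minus Tnfrsf11b (log2) on the 3 differentiated and 3 undifferentiated arrays, with bars for group means and dotted lines for the random-sequence probes. The groups overlap in every panel, and Tnfsf11 sits 0.19 to 0.55 above the dotted lines.

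The other genes listed as decoy receptors, Tnfrsf22 and Tnfrsf23, which bind TRAIL without signalling, and their chromosomal neighbour Tnfrsf26, were not called either (0 of 4 by limma with osteoprotegerin included, 0 with an unadjusted p under 0.05). With array weights Tnfrsf22 was lower (log2 fold change -0.33, adjusted p = 0.0171) and Tnfrsf23 higher (0.38, adjusted p = 0.00806). Tnfrsf22 and Tnfrsf23 are close paralogs, and how far their probe sets cross-hybridise was not tested. Tnfrsf26 read 6.86 to 7.10 in differentiated and 6.62 to 6.95 in undifferentiated cells and did not clear the random-sequence probes on every array.

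Tnfsf15, the ligand of Tnfrsf25, was the only ligand called. It read 7.57, 7.64 and 7.59 in differentiated cells, against 7.30, 7.33 and 7.26 in undifferentiated cells, a 1.23-fold rise (limma adjusted p = 0.0430). The level was 0.50 to 0.94 above the random-sequence probes on the log2 scale, and the call was lost whichever array was left out (adjusted p from 0.0557 to 0.184). It was also lost with the deposited values, with median centring and with an offset.

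The other 17 ligands had log2 fold changes between -0.09 (Tnfsf14) and 0.25 (Tnfsf10). For Tnfsf8, Tnfsf11 and Tnfsf18, at or near background, a narrow interval bounds no change. Tnfsf10, which encodes TRAIL, read 11.60, 11.58 and 11.28 in differentiated cells, against 11.19, 11.12 and 11.40 in undifferentiated cells. Undifferentiated replicate 3 overlapped the differentiated group (log2 fold change 0.25, limma adjusted p = 0.222), and the gene passed with array weights (0.37, adjusted p = 0.00677). Tnf itself read 8.34, 8.65 and 8.38 in differentiated cells, against 8.51, 8.22 and 8.20 in undifferentiated cells (log2 fold change 0.15, interval -0.14 to 0.44). Tnfsf12 read 13.87 to 13.94 in differentiated and 13.85 to 14.02 in undifferentiated cells. Tnfsf12 and Tnfsf13 neighbour each other and share a read-through gene, Tnfsfm13, so their probe sets may share transcripts. Tnfsf18 was at or below the random-sequence probes on all 6 arrays. Tnfsf8 was so on all 3 differentiated arrays and cleared them on only 1 undifferentiated array, by 0.04 on the log2 scale. No fold is given for either.

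Tnfrsf19, Tnfrsf21 and Ngfr were given no ligand among the members, so partners could be examined for the other 9 called receptors. Of 27 receptor and ligand pairs among the members, 12 had 1 partner called and 15 had none. The only called ligand, Tnfsf15, was in 1 pair, so the lack of a pair with both called says little about the pairs. The falls of Fas, Tnfrsf10b and Cd27 stood beside log2 fold changes of -0.05 for Fasl, 0.25 for Tnfsf10 and 0.17 for Cd70. The fall of Ltbr stood beside 0.24 for Ltb, and the rise of Tnfrsf13c beside -0.02 for Tnfsf13b. The rise of Tnfsf15 stood beside -0.09 for Tnfrsf25. In none of these partners did the change pass the test.

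The TRAF adaptors, which couple the receptors to kinases, had log2 fold changes from -0.31 to 0.23. Traf5, a partner of several costimulatory receptors, read 11.68, 11.58 and 11.46 in differentiated cells, against 11.83, 11.83 and 11.98 in undifferentiated cells. Its groups did not overlap, and it narrowly missed the threshold (log2 fold change -0.31, limma adjusted p = 0.0693). Traf5 passed with array weights (limma adjusted p = 0.0147) and also after leaving out entries below the 50th percentile of mean level. Traf2, which binds most receptors of the family that lack a death domain, read 10.97, 11.12 and 11.22 in differentiated cells, against 10.81, 10.79 and 11.04 in undifferentiated cells. Its log2 fold change was 0.23 (interval -0.03 to 0.48, limma adjusted p = 0.211), and it too passed with array weights (limma adjusted p = 0.0120). That setting weights differentiated replicate 2 far above the other arrays and called 37.8% of all genes and probe sets.

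Traf3, an inhibitor of the alternative NF-kB branch, differed by 0.01 (interval -0.23 to 0.24). Traf6, the adaptor through which RANK acts in osteoclast precursors, read 8.97, 9.22 and 9.37 in differentiated cells, against 9.03, 8.83 and 9.77 in undifferentiated cells. The highest and the lowest of its 6 values were both undifferentiated, and its interval of -0.535 to 0.495 was the widest of the TRAFs.

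The firmness of the 13 calls differed. Tnfrsf19, Tnfrsf21, Ngfr, Eda2r and Fas were called whichever array was left out. Tnfrsf13c and Edar were called in 3 of those 6 settings, Tnfrsf10b, Cd27 and Tnfrsf4 in 2, Ltbr and Tnfrsf1a in 1 and Tnfsf15 in 0. Without differentiated replicate 2 or 3 only the first 5 of these remained called. The direction of the 13 genes was the same in all 6 settings, which was fixed in advance because their groups do not overlap. Of the first 5, Ngfr was not called at an adjusted p under 0.01 (limma adjusted p = 0.0103). It was too dim to be tested with either filter on low values.

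**Figure D4:**
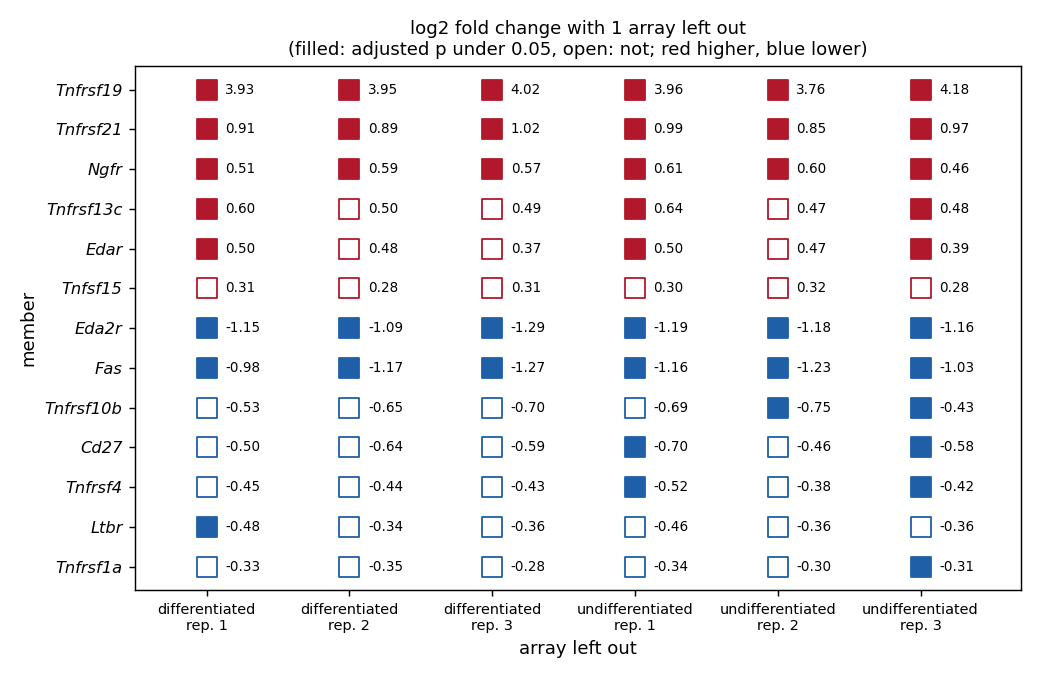
Log2 fold change (number beside each square) of the 13 called members when the array named on the x axis is left out, with filled squares for a limma adjusted p under 0.05 and open squares for none. The rows of Tnfrsf19, Tnfrsf21, Ngfr, Eda2r and Fas are filled throughout, and that of Tnfsf15 is open throughout.

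Downstream of the receptors, 93 measured genes of 6 pathway lists were examined, of which 9 rose, 13 fell and 71 were not called (23.7% called, against 17.0% of all). Without undifferentiated replicate 3, 14 rose and 15 fell. Their median log2 fold change was -0.07, and that of all was 0.00. Of 25 genes of receptor complexes, death signalling and its inhibitors, 2 rose and 2 fell. Tnip1, an inhibitor of NF-kB that binds the ubiquitin-editing enzyme Tnfaip3, rose 2.51-fold. It read 11.84, 11.70 and 11.67 in differentiated cells, against 10.35, 10.43 and 10.45 in undifferentiated cells (log2 fold change 1.33 ± 0.09 SE, limma adjusted p = 4.94e-05). Fadd, the adaptor that links Fas to caspase 8, rose 1.52-fold, and the deubiquitinase Cyld fell 1.46-fold. Tnip2, a relative of Tnip1, fell 1.38-fold. The call of Fadd did not hold without differentiated replicate 2 (adjusted p = 0.0594), and that of Tnip2 held in 2 of the 6 settings that leave out an array. Tnip2 was not called either with the deposited values (limma adjusted p = 0.0727), with median centring (0.0743) or with cyclic loess (0.0548).

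Of 18 kinases of the NF-kB and MAP kinase branches, 1 rose, 2 fell and 15 were not called, against 17.0% called of all genes and probe sets. The median log2 fold change of the list was -0.20, and that of all was 0.00. Mapk8, a gene of the JNK kinases, fell 1.88-fold, at 9.18, 9.35 and 9.89 in differentiated cells, against 10.25, 10.39 and 10.51 in undifferentiated cells. Mapk9, another JNK gene on the list, was not called (log2 fold change -0.16, limma adjusted p = 0.400). Map3k14, the NF-kB inducing kinase of the alternative branch, fell 1.53-fold, and Tab2, a TAK kinase partner, rose 1.40-fold. Leaving out differentiated replicate 2 ended both calls (limma adjusted p = 0.0529 for Map3k14 and 0.0525 for Tab2). Of 12 NF-kB subunits and inhibitors only Nfkb2, the subunit processed in the alternative branch, was called, with a 1.32-fold fall (limma adjusted p = 0.0277) that was lost in 5 of the 6 settings without an array. Relb, its partner, had a log2 fold change of 0.00, and Nfkbia, the classical inhibitor and an NF-kB target itself, had one of -0.18 (adjusted p = 0.258).

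Genes known as NF-kB targets moved in both directions. Of 24, 3 rose, 5 fell and 16 were not called, against 17.0% called of all genes and probe sets. Their median log2 fold change was 0.10. The adhesion molecules went opposite ways. Icam1 rose 2.12-fold, at 9.50, 9.67 and 9.89 in differentiated cells, against 8.65, 8.61 and 8.54 in undifferentiated cells. Vcam1 fell 2.09-fold, at 13.79, 13.62 and 13.66 in differentiated cells, against 14.80, 14.69 and 14.78 in undifferentiated cells. The chemokine Ccl5 rose 1.72-fold. Ptgs2, the inducible cyclooxygenase, fell 2.58-fold, with scattered undifferentiated arrays (8.45, 7.89 and 9.12) and differentiated arrays close to background (7.08, 7.02 and 7.25).

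Of 12 other genes by which osteoblasts are known to act on osteoclasts, 1 rose and 5 fell, among them Ptgs2. The share called of all genes and probe sets was 17.0%. Wnt5a, a Wnt ligand, fell 2.09-fold, the chemokine Cxcl12 fell 1.77-fold and the ephrin Efnb2 was called lower. Efnb2 lay at or below the random-sequence probes on 2 of 3 differentiated arrays, so no fold is given, and leaving out differentiated replicate 2 ended its call (limma adjusted p = 0.0515). Csf1, the other cytokine that osteoclast precursors need, had a log2 fold change of 0.11 (adjusted p = 0.460). Of 5 proteases known to shed family members, Mmp14 rose 1.42-fold and Adam17, which sheds TNF, rose 1.33-fold. The call of Adam17 was lost with the deposited values, with median centring and in 5 of 6 settings without an array.

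**Figure D5:**
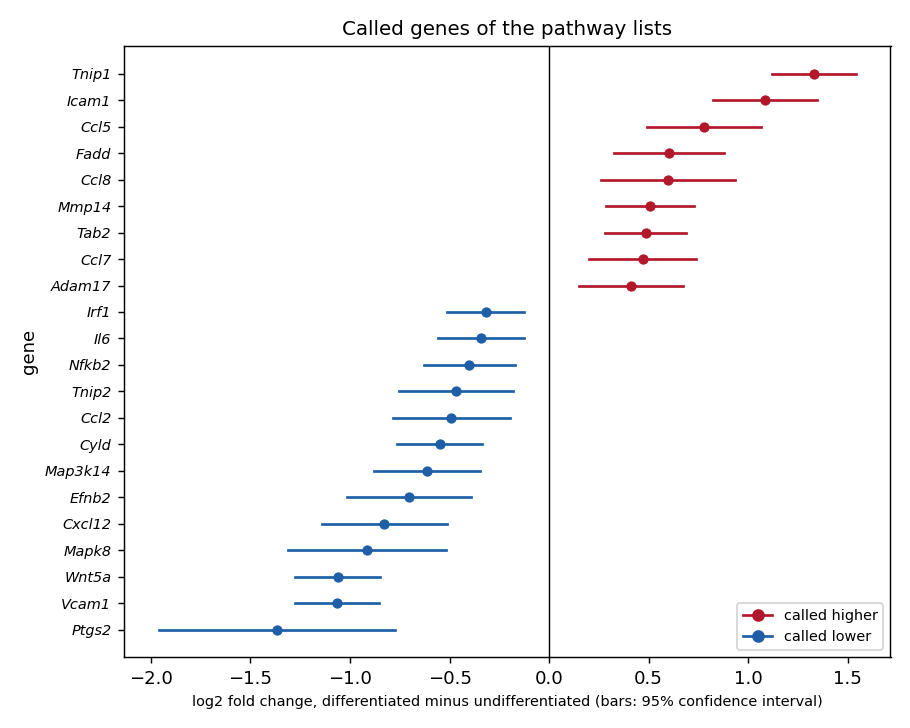
Log2 fold change (x axis, differentiated minus undifferentiated) with 95% confidence interval for the 22 called genes of the pathway lists. Tnip1 and Icam1 are the highest, and Ptgs2 is the lowest, with the widest interval.

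Markers of other cell types were followed as well. Of 10 macrophage and osteoclast genes 1 was called, Ctsk, which rose 1.97-fold. Only Dcstamp was below the random-sequence probes on every array. Calcr cleared them on 1 undifferentiated array, and the other genes of the list, such as Ptprc and Itgam, cleared them on every array. The summed intensity of that list, most of it Ctsk, ran from 39660 to 40542 in differentiated and from 21143 to 22127 in undifferentiated arrays. Of 5 endothelial genes Tek and Pecam1 rose (2.81-fold and 1.39-fold). Tek was dim in undifferentiated cells, at 7.29, 7.60 and 7.31, and its smallest margin over the random-sequence probes was 0.50 on the log2 scale. Only Cdh5 was below those probes on every array, and the other genes of the list cleared them on every array. The summed intensity of the endothelial list was 2314 to 2389 in differentiated and 1638 to 1885 in undifferentiated arrays. Of 5 adipocyte genes Adipoq, close to background, fell 1.34-fold, and the summed intensity was 1987 to 2166 in differentiated and 1859 to 2238 in undifferentiated arrays. Pecam1 and Adipoq lost their calls in 3 of the 6 settings that leave out an array. The part of these genes in the members' results was not tested.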

How the data were processed

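Total RNA from 3 differentiated and 3 undifferentiated MC3T3-E1 cultures was run on NimbleGen arrays in a single colour, with Cy3 as the label, per the labels. The deposited values are intensity values on a linear scale that the authors made with RMA, per the submitters' processing notes. RMA corrects background, normalizes and summarises the probes of a probe set (9 probes in 42566 of 42586 sets). For the software, its version and the design's build the sources used here give nothing. The number of arrays limits the precision.

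Values were put on the log2 scale. Sorted arrays differed by up to 0.135 (median over ranks), above a limit of 0.02, so the arrays were quantile normalized together. Accessions without versions were matched to a RefSeq table (GRCm38.p6, used for names, neighbours and promoter windows): 17849 probe sets matched by accession, 130 by symbol or synonym, and 24607 stayed unnamed. The probe set with the highest mean stood for a gene. Tnfsf13os was not analysed here. The test was a two-sided limma fit (version 3.58.1, R 4.3.3; lmFit and eBayes, no covariate, Benjamini-Hochberg over 41938 entries). The script was checked on simulated data.

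Alternatives were cyclic loess, median centring, the deposited values, leaving out entries below the 25th or 50th percentile of mean level, the mean of probe sets, an offset of 50, trend and robust eBayes, array weights, replicate blocks, a threshold of 0.01, and single arrays left out after normalization. The series matrix held the arrays' own values, with differentiated replicates 1 and 2 exchanged relative to the files used here, so it was not run as an alternative. The labels state no pairing of the samples, so the main fit used none. Correlations of deviations were 0.334, -0.145 and 0.459 by the titles' numbers and -0.01, 0.428 and 0.459 by the file names' numbers.

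Named were all called members, 14 members fixed by name, and up to 4 called genes per pathway list, the largest first. Relb, Nfkbia, Csf1, Mapk9 and other uncalled members were added with values in view. Members, lists and tests were chosen with earlier results of these data known.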

Additional observations from a re-analysis of the deposited data

How the results depend on the processing

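Over the settings tried, the 13 called members kept their direction. For the settings without an array this was fixed in advance, because their groups do not overlap. The count of all called genes, 7135 at first, was 15846 with array weights and 3184 at an adjusted p under 0.01, and it ran from 3141 to 9391 when an array was left out. The 6 higher members numbered 2 with either filter on low values, which left out 4 of them untested, 2 at an adjusted p under 0.01, and 3 to 5 without an array. The 7 lower members numbered 4 with cyclic loess, 2 at an adjusted p under 0.01, and 2 to 6 without an array. With array weights 19 members were called (35.8%, against 37.8% of all). Higher pathway genes, 9 at first, numbered 24 with array weights, 5 at an adjusted p under 0.01 and 4 to 14 without an array, the highest without undifferentiated replicate 3. Lower pathway genes, 13 at first, numbered 23, 8 and 6 to 15 in the same settings. The cause was not tested beyond what fewer genes or arrays fix by construction.

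Only values near 0 changed sign. Tnfsf11 minus Tnfrsf11b was -0.008 with cyclic loess and -0.024 with an offset, and it ran from -0.103 without differentiated replicate 1 to 0.088 without undifferentiated replicate 2. With array weights Tnfrsf1b was -0.19, Traf3 -0.13 and Traf6 0.17, and Traf3 was -0.013 with the deposited values and -0.039 with median centring. Without 1 array, Tnfrsf11a ran from -0.046 to 0.093, Tnfrsf11b from -0.001 to 0.252, Tnfrsf1b from -0.029 to 0.173, Traf3 from -0.057 to 0.084 and Traf6 from -0.21 to 0.26.

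With the titles' numbers as a replicate block 12 members were called (5 higher, 7 lower; Tnfsf15 was lost, adjusted p = 0.0522), and with the file names' numbers 13, while all called genes numbered 8984 and 10493. The labels give the samples only a shared number and no pairing. Deviations of arrays with the same number correlated at 0.334, -0.145 and 0.459 by the titles' numbers. By the file names' numbers they correlated at -0.01, 0.428 and 0.459. Whether cultures of the same number were handled together was not tested. Signal over background limits Tnfsf8, Tnfsf11, Tnfsf18 and Tnfrsf26, which lay at or near the random-sequence probes.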

Other observations

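Many family genes lie beside each other in the genome, which the choice of members did not use. With gaps of at most 300 kb between gene bodies in the RefSeq table, 23 of the 53 members fell into 9 groups of neighbours. On chromosome 6 Cd27, Ltbr and Tnfrsf1a lie together, and all 3 fell (log2 fold changes -0.58, -0.39 and -0.32; limma adjusted p = 0.0225, 0.0452 and 0.0405). The other measured genes between them, Tuba3a and Scnn1a, had log2 fold changes of 0.05 and -0.025 and were not called. The 3 calls are among the less firm of the family, each lost in at least 4 of the 6 settings that leave out an array. In the other groups at most 1 member was called. The neighbours Tnf, Lta and Ltb had log2 fold changes of 0.15, 0.13 and 0.24, and Tnfrsf4 fell while its neighbour Tnfrsf18 had one of -0.14 and Sdf4 beside them rose (0.63, limma adjusted p = 0.00298).

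Members with several probe sets were Cd40, with 4, and Tnfrsf18, with 2. The log2 fold changes of the Cd40 probe sets were 0.15 for the one used and -0.12, 0.13 and -0.01 for the others, all with overlapping groups. The Tnfrsf18 probe sets gave -0.14 and -0.10, and on both of them replicate 3 was the lowest array of its group in differentiated and in undifferentiated cells.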
